A study of Mus musculus with 8 samples.

Results

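Fragments of the small nucleolar RNAs (snoRNAs) carried in the introns of Snhg1, a noncoding host gene on mouse chromosome 19, were followed in sperm under 2 perturbations. A name was taken where any of its listed loci lay within the stretch that spans the snoRNA genes of the host (mm10), and each name was counted once. This gave 190 of the 20210 piRNA names in the series: 185 of 13450 in the table that pairs control with MC-LR, 164 of 17375 in the table that pairs the 2 shRNAs, and 159 in both. The 8 libraries came from sperm of Balb/c mice at post natal month 8, in 4 groups of 2 libraries, A and B. One pair of groups is control and MC-LR, and the other is Hsp90aa1 shRNA and its negative-control shRNA. MC-LR is microcystin-LR, a toxin of cyanobacteria that inhibits protein phosphatases, and Hsp90aa1 encodes a cytosolic chaperone. The series' design text speaks of doses, but the sample labels carry none, and they give neither the route of the shRNA nor the cells it reached. Nothing states that libraries A and B are separate animals, so a p-value here takes its error from 2 libraries whose spread may be purely technical.

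Most snoRNAs of vertebrates are cut out of introns: the host transcript is spliced, the intron is debranched, and exonucleases trim it back to the ends that the bound proteins protect. Box C/D snoRNAs carry a C box near the 5′ end and a D box near the 3′ end, which these proteins bind, and they guide methylation of the ribose in ribosomal RNA. Shorter pieces of snoRNAs are found in many cells, and sequences of this kind are also listed in collections of piRNAs, the small RNAs that PIWI proteins carry in germ cells.

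All 190 names lay on the + strand and on 1 of 8 snoRNA genes, which sit 1 each in introns 1 to 8 of Snhg1 (GRCm38, 19:8723475–8726443, 10 exons). In order along the host these are Gm25855, Gm25894, Gm24452, Gm24453, Gm22744, Gm22680, Gm23246 and Snord22. In the annotation used only Snord22 has a family name and the other 7 carry placeholder symbols, which are kept here. The genes lie at 19:8723993–8724064 (Gm25855), 19:8724251–8724325 (Gm25894), 19:8724531–8724602 (Gm24452) and 19:8724868–8724943 (Gm24453). The others lie at 19:8725092–8725156 (Gm22744), 19:8725341–8725409 (Gm22680), 19:8725594–8725660 (Gm23246) and 19:8725866–8725991 (Snord22), and all but Snord22, of 126 bases, are 65 to 76 bases long. The genes are shown to let the position of each fragment be read. Capitals mark the most abundant fragment of each gene in the control and MC-LR libraries:
Gm25855: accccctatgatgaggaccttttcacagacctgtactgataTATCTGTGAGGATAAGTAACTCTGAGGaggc
Gm25894: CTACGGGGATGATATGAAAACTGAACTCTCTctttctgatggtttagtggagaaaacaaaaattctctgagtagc
Gm24452: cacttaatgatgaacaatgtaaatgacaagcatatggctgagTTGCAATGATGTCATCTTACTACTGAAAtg
Gm24453: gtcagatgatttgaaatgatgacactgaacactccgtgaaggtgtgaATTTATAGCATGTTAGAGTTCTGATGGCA
Gm22744: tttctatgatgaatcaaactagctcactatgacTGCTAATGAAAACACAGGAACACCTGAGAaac
Gm22680: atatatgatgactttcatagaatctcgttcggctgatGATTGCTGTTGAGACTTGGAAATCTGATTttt
Gm23246: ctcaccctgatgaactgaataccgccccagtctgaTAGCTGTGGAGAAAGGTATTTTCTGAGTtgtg
Snord22: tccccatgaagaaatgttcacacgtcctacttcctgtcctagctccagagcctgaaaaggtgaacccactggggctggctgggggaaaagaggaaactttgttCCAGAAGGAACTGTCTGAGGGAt

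The last CTGA, the D box sequence, lay in the last 15 bases of all 8 genes, as it did in 97 of 103 other Snord genes and in 3 of 42 genes of the Snora family, the box H/ACA snoRNAs. TGATGA, the C box sequence, lay in the first 20 bases of 5 of the 8, against 75 of 103 other Snord genes and 0 of 42 Snora genes. On the opposite strand (TCAG and TCATCA) neither was found in those windows of the 8 genes, while TCAG was found in 4 of 103 other Snord and 4 of 42 Snora genes, and TCATCA in 0 of both. A match describes letters only.

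The names were 17 to 33 nt long and fell into a 5′ set and a 3′ set, split here by whether the middle of the name lies before or after the middle of the gene. There were 66 5′ and 119 3′ names in the MC-LR table, and 59 and 105 in the shRNA table. The 3′ names mostly carried the D box, whole in 101 of 119 and 92 of 105 names, and the 5′ names often carried the C box, in 43 of 66 and 39 of 59. At Gm24453 and Snord22 every listed name was 3′, and 44 of the 76 bases of Gm24453 and 94 of the 126 bases of Snord22 were covered by none in the MC-LR table. At Gm25894, the snoRNA of intron 2, and at Gm23246 most names of the MC-LR table were 5′, 23 of 30 and 17 of 31.

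**Figure D1:**
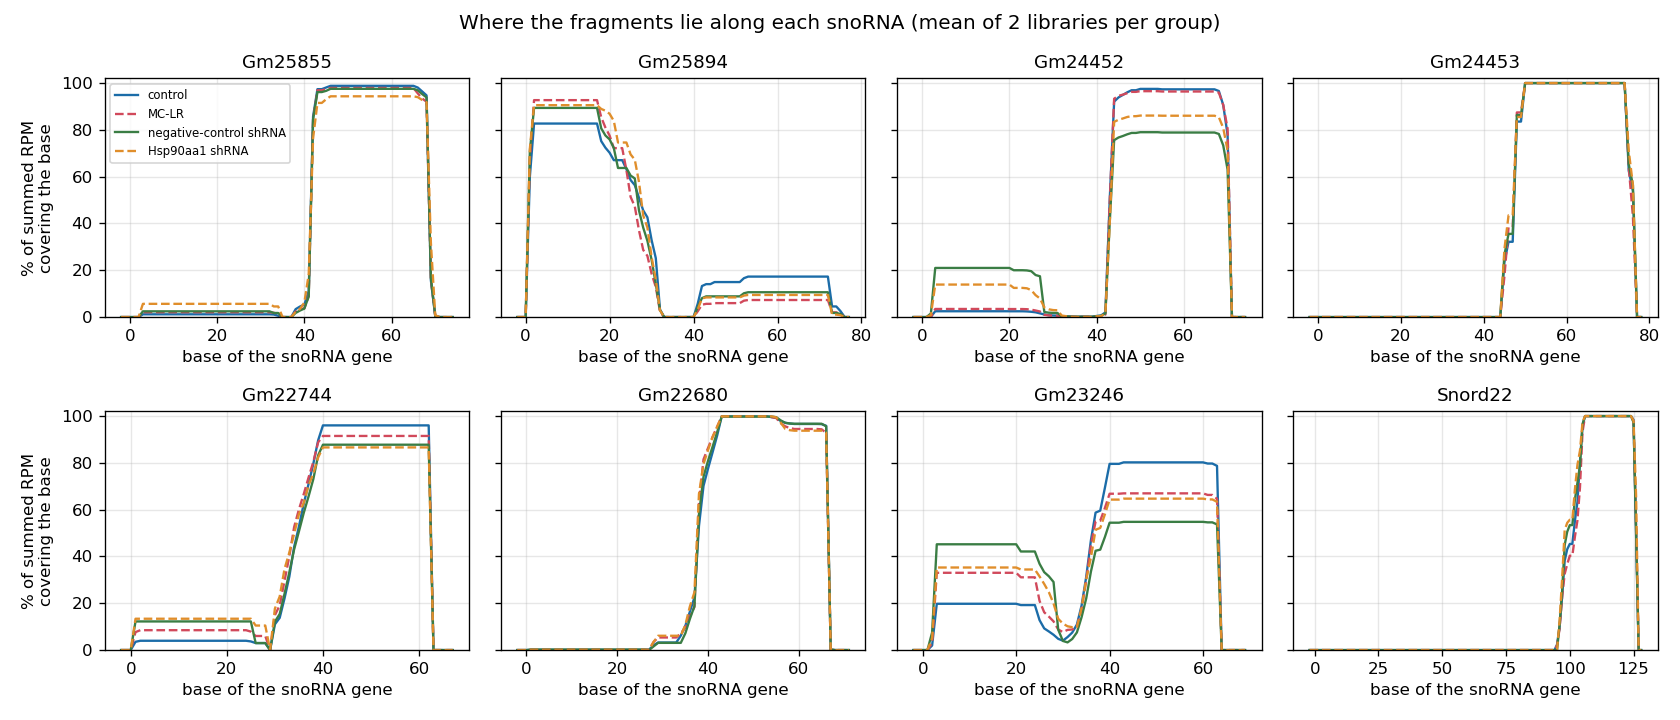
Share of each snoRNA's summed RPM that covers each base of its gene (x axis, base 1 is the gene's first base), as the mean of 2 libraries per group, with solid lines for the control groups and dashed lines for MC-LR and Hsp90aa1 shRNA. Coverage rises and ends at nearly the same bases in all 4 groups; Gm25894 is covered mostly at its 5′ end, the other 7 mostly or only at their 3′ end, and the 5′ plateaus of Gm24452 and Gm23246 are higher in the shRNA table.

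Fragments of a gene tended to share 1 end and to vary at the other. In 6 of 8 genes the most used last base of the 3′ names lay 2 bases past the D box, and at Gm24453 and Snord22 it was the last base of the gene, 5 bases past it. At Gm22744 all 11 of the 3′ names ended on that base, base 62, and they began at 11 different bases from 30 to 40. At Gm23246 names ending at base 63 held 97.9%, 98.3%, 96.0% and 97.0% of the 3′ level in control A, control B, MC-LR A and MC-LR B. At Gm22680 only 10 of 27 3′ names ended at base 66, with 92.3% to 95.9% of the 3′ level in these libraries. Others there ended at bases 53 to 58, before the D box. Snord22 and Gm24453 were looser, with 49.1%, 49.2%, 47.7% and 57.6%, and 47.8%, 58.3%, 33.3% and 60.0%, of their level on their most used last base. The same end was common outside Snhg1: it lay 2 bases past the D box in 54 of 64 other Snord genes with 3′ names in the MC-LR table (84.4%) and in 50 of 60 in the shRNA table (83.3%). The 5′ names shared a most used first base instead, base 1 or 3 of the gene, 5 or 6 bases before the C box at the 5 genes where one was found. At Gm24452 names from that base held 95.9% to 97.3% of the 5′ level in the 4 libraries of the MC-LR table, and at Gm25894 they were 13 of 23 names and held 71.3% to 74.3%.

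The values are RPM, read counts that the authors scaled to a common library total, and 1 read was worth the same for every name of a library. The totals were 4960467 to 14634370 reads. The median Snhg1 name had 188 and 70 reads in control A and B and 16 and 19 in MC-LR A and B. In the shRNA table it had 62.5 and 63 reads in the negative control and 11 and 8 with the Hsp90aa1 shRNA. A level of 3 reads, taken as the floor, was 0.205 to 0.605 RPM, which covers counting error only. Both tables hold almost no name with similar group means. On a log2 scale the group means lay less than 0.5 apart for only 2 of 13450 names under MC-LR and for 0 of 17375 with the shRNA, and every name was above 0 in all 4 libraries of its table. A fragment that did not differ may therefore not be among the names, and the direction shared by the listed names is no independent evidence. Names that lie inside one another were not fixed sums of each other: of 988 nested pairs in the MC-LR table the longer name had fewer reads than the shorter in at least 1 library in 674, and the shorter had fewer in 633. Neither Hsp90aa1 nor sperm markers are small RNAs, so the target of the shRNA and the label of the cells were not checked here.

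The first comparison asked how the fragments of the Snhg1 snoRNAs differ after MC-LR. All 8 snoRNAs had lower summed levels in both MC-LR libraries than in either control library. Gm24452, in intron 3, held about 2 of every 3 fragments of the host and stood 4.84-fold lower. The scarce Gm24453 was 9.71-fold lower and Gm22744 was 8.82-fold lower, while Gm25894 was 4.27-fold lower.

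Summed over the 185 names, the level was 19262 RPM in control A and 22692 RPM in control B against 4361 RPM in MC-LR A and 3879 RPM in MC-LR B. The groups did not overlap, and the means were 20977 ± 2425 and 4120 ± 341 RPM (SD, n = 2), 5.09-fold lower. Of the library total this was 1.93% and 2.27% in control and 0.436% and 0.388% under MC-LR. Beside this, the sum of all names of the table was 3.03-fold lower and that of other Snord names 5.20-fold. Gm24452 stood at 12534 and 15080 RPM in control and 2964 and 2737 RPM under MC-LR. Gm22680 followed with 2864 and 3274 RPM against 756 and 556 RPM, 4.68-fold lower. These 2 snoRNAs made up most of the host's fragments in every library. Gm23246 went from 1472 and 1818 RPM to 248 and 238 RPM (6.77-fold), and Gm25855 from 1547 and 1534 RPM to 220 and 185 RPM (7.60-fold). Gm25894 had 399 and 516 RPM in control and 115 and 99.8 RPM under MC-LR. The low snoRNAs were Gm22744 with 313 and 362 RPM against 36.2 and 40.4 RPM, Snord22 with 106 and 71.8 RPM against 18.3 and 20.1 RPM (4.61-fold), and Gm24453 with 26.2 and 35.3 RPM against 4.04 and 2.29 RPM. In sperm RNA as a whole, fewer cells of a type and less RNA per cell cannot be told apart.

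**Figure D2:**
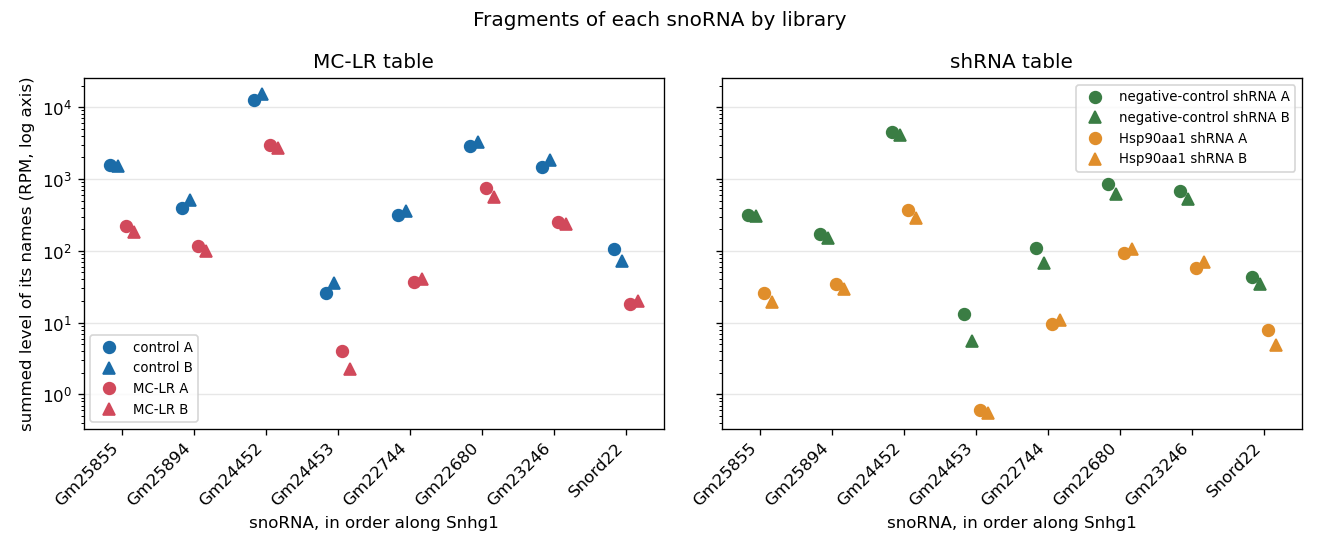
Summed level of the names of each snoRNA (RPM, log axis) in each library, circles for A and triangles for B, in the MC-LR table (left) and the shRNA table (right). Every snoRNA is lower in both MC-LR libraries than in both control libraries, and lower in both Hsp90aa1 shRNA libraries than in both negative-control libraries; Gm24452 is highest and Gm24453 lowest in all 8 libraries.

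Name by name, limma on log2(RPM + 1) was used across the whole table, with Benjamini-Hochberg adjustment and a threshold of 0.05. Of 183 tested names (a group mean of 1 RPM or more) 168 fell, 0 rose and 15 did not pass, where 73.1% of all names fell and 2.37% rose. None rose at an unadjusted p under 0.05 either. Limma and edgeR with TMM factors, and DESeq2 with its own size factors, each had 1 name higher at that level. After adjustment each had 0, where each of the 3 called 2.38% of all names higher. Of the 185 names, 179 were lower in both MC-LR libraries than in either control (92.6% of the table) and 0 were higher in both (2.34%). The median log2 fold change was −1.95 against −1.17 over all names. Scaling within the list with TMM factors took the median of all names to 0.00 and left the Snhg1 names at −0.70. With these factors 29 Snhg1 names were lower in limma, against 4.17% of all names, and 24 in edgeR's quasi-likelihood test, against 3.04%. DESeq2, with its own size factors, put 27 lower, against 3.01%. Library totals and TMM factors thus both put the median of the Snhg1 names under that of the table. Other Snord names had medians of −1.98 and, with TMM factors, −0.76, and names in Gas5, another host of box C/D snoRNAs, −2.16 and −0.81. The Snhg1 medians stood close to those of the fragments of other box C/D snoRNAs, and the difference was not tested. Snora names had medians of −2.16 and −1.04. By limma with TMM factors 15.8% of tested Snhg1 names were lower, against 19.5% of other Snord, 17.7% of Gas5 and 32.6% of Snora names. On library totals these shares were 91.8%, 94.6%, 96.5% and 92.6%, in the same order.

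The 29 names that remained lower with TMM factors lay at 7 of the 8 snoRNAs. There were 9 of 39 at Gm24452, 7 of 14 at Gm22744, 5 of 19 at Gm25855, 5 of 31 at Gm23246, 1 each at Gm25894 (piR-mmu-10980667), Gm24453 (piR-mmu-20326758) and Gm22680 (piR-mmu-55900751), and 0 of 17 at Snord22. By position 28 of 119 tested 3′ names were lower and 1 of 64 tested 5′ names, and edgeR with TMM factors gave 23 and 1. Of all names, 4.17% and 3.04% were lower in these 2 fits. The 3′ names also had higher levels, a summed control mean of 19893 RPM for 119 names against 1084 RPM for 66 5′ names. Low names change less on the log2(RPM + 1) scale, and a role of level in this split was not tested. The single 5′ name, piR-mmu-10980667, was named after its values were seen, as was piR-mmu-55900751. The 15 names that did not pass on library totals were 8 of the 5′ and 7 of the 3′ set.

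Since RPM moves with the library total, shares within the host were compared as well. Gm24452 held 65.1% and 66.5% of the summed level in control A and B and 68.0% and 70.6% in MC-LR A and B. Gm25855 held 8.03% and 6.76% in control and 5.04% and 4.78% under MC-LR, and Gm23246 7.64% and 8.01% against 5.68% and 6.14%. The share of Gm22744 went from 1.62% and 1.60% to 0.830% and 1.04%, and that of Gm25894 from 2.07% and 2.27% to 2.63% and 2.57%. The groups did not overlap for these 5 snoRNAs or for Gm24453, and they overlapped for Gm22680 and Snord22. With 2 libraries against 2 an exact permutation test cannot go below p = 0.33, so none of these differences could pass. Over the 16 shares compared in this table the smallest adjusted p was 0.410.

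Fold and position within the gene went together in the sums of this table, though not for all 3′ names. Summed over the host, 3′ names went from 18145 and 21641 RPM to 4063 and 3603 RPM, 5.19-fold by the means, and 5′ names from 1117 and 1051 RPM to 298 and 276 RPM, 3.78-fold. The 5′ share was 5.80% and 4.63% in control and 6.83% and 7.11% under MC-LR. It was higher in both MC-LR libraries than in either control library, and without Gm24452 it was 11.2% and 9.50% against 14.6% and 15.1%. The share was higher without overlap at Gm25855, Gm25894, Gm24452, Gm22744 and Gm23246 and overlapped at Gm22680, whose 5′ names reached 4.64 RPM at most. At Gm24452 the separation depended on 1 name, the 25-nt piR-mmu-30383507, 1.69-fold lower. The next name on its first base was 5.13-fold lower and the other 10 were 4.65-fold lower in sum, against 4.89-fold for the 3′ names of Gm24452. At Gm23246 the 5′ share was 25.7% and 14.99% in control and 35.2% and 30.8% under MC-LR. At Gm25894 it was 87.6% and 78.9% against 94.9% and 90.2%. Fragments of other Snord genes showed the same order, 27.3% and 30.5% in control and 38.3% and 40.2% under MC-LR, and so did those of Gas5, 16.1% and 17.9% against 26.7% and 23.8%. The two-sided exact permutation p was 0.33 for each of the 5 shares without overlap. Inside the 3′ set of Gm22680 the order of the folds did not hold throughout. Names there that begin at bases 27 to 29 end at bases 53 to 58, before the D box, and alone cover bases 29 to 33. Mean coverage of these bases dropped from 99.1 to 35.3 RPM with MC-LR, a smaller fold than the 3.78 of the host's 5′ names.

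**Figure D3:**
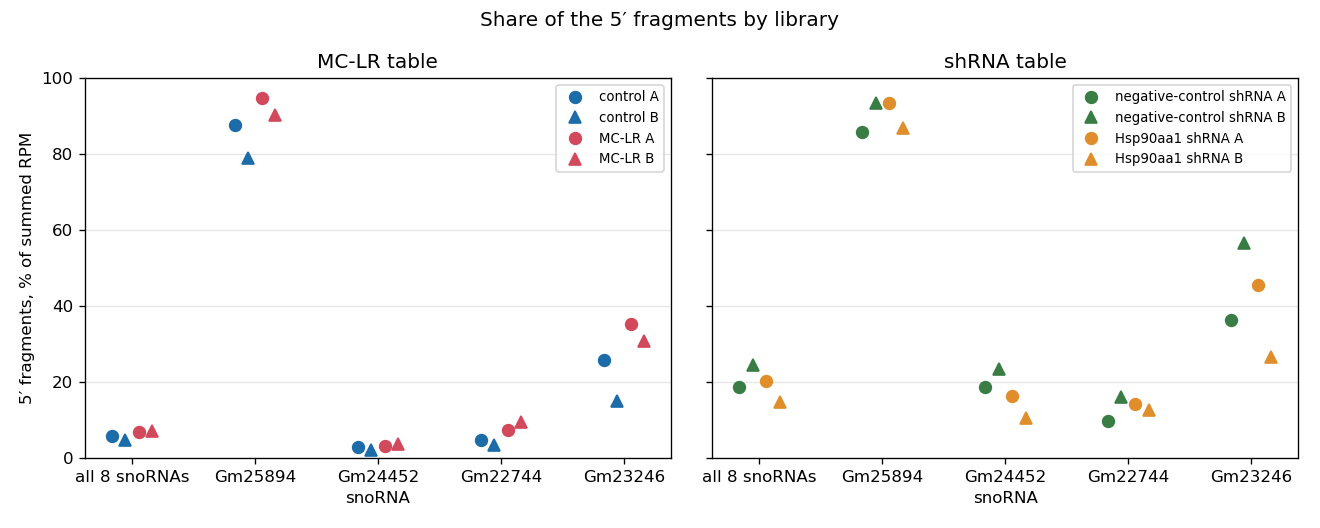
Share of 5′ names in the summed RPM of all 8 snoRNAs and of 4 single snoRNAs (y axis, %), 1 point per library, circles for A and triangles for B. In the MC-LR table (left) both MC-LR libraries lie above both control libraries in every column. In the shRNA table (right) the groups overlap except at Gm24452, where both Hsp90aa1 shRNA libraries lie lower. At Gm24452 the separation in both tables depends on 1 name, piR-mmu-30383507.

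Names of Gm24452 that share an end show how unevenly the pieces of 1 snoRNA moved. The first 5 names end at base 70, 2 bases past the D box, and differ in where they begin, and the last line is the leading 5′ name. Capitals mark the D box (CTGA) or the C box (TGATGA):
piR-mmu-49947804: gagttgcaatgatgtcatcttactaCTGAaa
piR-mmu-2047156: ttgcaatgatgtcatcttactaCTGAaa
piR-mmu-18443: tgcaatgatgtcatcttactaCTGAaa
piR-mmu-4613631: caatgatgtcatcttactaCTGAaa
piR-mmu-49344804: gatgtcatcttactaCTGAaa
piR-mmu-30383507: cttaaTGATGAacaatgtaaatgac

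The 28-nt piR-mmu-2047156 had the highest mean level of the host in both tables. It stood at 4393 and 6182 RPM in control and 1193 and 1108 RPM under MC-LR, 4.59-fold lower (limma log2 fold change −2.18 ± 0.33 SE, adjusted p = 5.17e-04). piR-mmu-18443 begins 1 base later and was 4.38-fold lower, from 4050 and 4990 RPM to 1086 and 978 RPM. The other 8 names on this end were 7.06- to 21.2-fold lower, with a median of 9.06. Together the 2 leading names went from 89.7% and 92.3% of the level on this end in control to 95.0% and 95.2% under MC-LR. The longest, the 31-nt piR-mmu-49947804, had 25.2 and 53.2 RPM in control and 2.02 and 1.68 RPM under MC-LR, the largest change of any Snhg1 name on the log2(RPM + 1) scale of limma (log2 fold change −3.73 ± 0.41 SE, adjusted p = 2.41e-04). piR-mmu-18443, piR-mmu-4613631 and piR-mmu-49344804 were chosen for printing after their values were seen. Scaled with TMM factors, piR-mmu-2047156 was at −0.53 (limma adjusted p = 0.472) and piR-mmu-49947804 at −2.39 (limma adjusted p = 0.00217).

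At Gm22680 the leading names also had the smaller folds. Its 29-nt piR-mmu-26817374 (bases 38 to 66) had 807 and 1025 RPM in control and 329.6 and 236 RPM under MC-LR, 3.24-fold lower (limma log2 fold change −1.70 ± 0.35 SE, adjusted p = 0.00226). With TMM factors this name was at −0.06 (limma adjusted p = 0.958), near the median of the table. The next name on that end was 4.35-fold lower and the other 8 were 5.98- to 8.69-fold lower. The 2 leading names made up 47.8% and 49.8% of the level on this end in control and 67.4% and 64.4% under MC-LR. At Gm22744 the share of the 2 leading names overlapped between the groups, from 19.1% to 29.4% in control and from 27.6% to 32.1% under MC-LR. At the shared first base of Gm25894 the order was the opposite: the leading piR-mmu-7434602 was 7.93-fold lower and the 11 names after the first 2 had a median of 2.72, and the first 2 went from 35.0% and 39.1% to 19.7% and 26.2%. The leading names were picked by their mean over all 4 libraries, and no share of this kind could pass an exact test.

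The leading 3′ names of the other snoRNAs all fell by limma. piR-mmu-27123547 of Gm25855 went from 997 and 939 RPM to 136 and 112 RPM (log2 fold change −2.96 ± 0.33 SE, adjusted p = 2.41e-04). piR-mmu-1567638 of Gm23246 went from 211 and 308 RPM to 36.7 and 38.7 RPM (−2.73 ± 0.35), and the 25-nt piR-mmu-55586610 of the same end from 179 and 144 RPM to 12.1 and 14.3 RPM (−3.51 ± 0.34). Both pairs of groups were far apart. At Gm22744, piR-mmu-4563705 had 37.9 and 48.0 RPM in control and 2.86 and 6.71 RPM under MC-LR (−3.00 ± 0.41). The 23-nt piR-mmu-48879715, listed at 2 loci and so not certain to come from Gm22744, had 25.4 and 17.5 RPM against 1.01 and 1.07 RPM (−3.44 ± 0.36). piR-mmu-20326758 of Gm24453 went from 9.36 and 9.27 RPM to 1.01 and 0.610 RPM (−2.52 ± 0.34), and piR-mmu-49398997 of Snord22 from 12.4 and 5.64 RPM to 2.02 and 1.52 RPM (−1.77 ± 0.41).

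The 6 named fragments that did not pass were 5′ names, picked as the 3 smallest changes and the 3 most abundant names that did not pass. Small changes were not confined to the 5′ set. Of the 15 names that did not pass, 7 were 3′, 5 at Gm22680 and 2 at Snord22. Of the 33 names above 0 with TMM factors, 14 were 3′, 11 of them at Gm22680. piR-mmu-30383507, the 25-nt name of Gm24452 printed above, had 71.7 and 65.1 RPM in control and 40.2 and 40.5 RPM under MC-LR (limma log2 fold change −0.74 ± 0.34 SE, adjusted p = 0.0611). Its groups did not overlap, and the other 11 names on its first base were 3.09- to 10.2-fold lower while it was 1.69-fold lower. At Gm25894, the snoRNA covered from its 5′ end, piR-mmu-48828945 (23 nt) had 19.4 and 15.5 RPM against 12.8 and 7.32 RPM, and piR-mmu-29265642 (24 nt) 13.3 and 15.3 RPM against 10.8 and 5.33 RPM. The 23-nt piR-mmu-48722020, which begins at base 2, overlapped, at 9.22 and 5.04 RPM against 5.05 and 3.51 RPM. The longer piR-mmu-7434602 (31 nt) of that snoRNA did pass and fell from 38.3 and 97.6 RPM to 8.75 and 8.38 RPM (−2.70 ± 0.44, limma adjusted p = 8.34e-04). The 18-nt names piR-mmu-49830887 of Gm24452 and piR-mmu-48888842 of Gm23246 had log2 fold changes of −0.51 and −0.61, and the latter had 14.4 RPM in control A and 3.83 RPM in control B, under both MC-LR libraries (4.04 and 5.33 RPM). With TMM factors all 6 of the named fragments that did not pass lay above 0, between 0.44 and 0.88 in limma, and none passed. Without control B 5 of them passed on library totals, with piR-mmu-30383507 at −0.81, and without control A piR-mmu-29265642 did (−0.92).

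**Figure D4:**
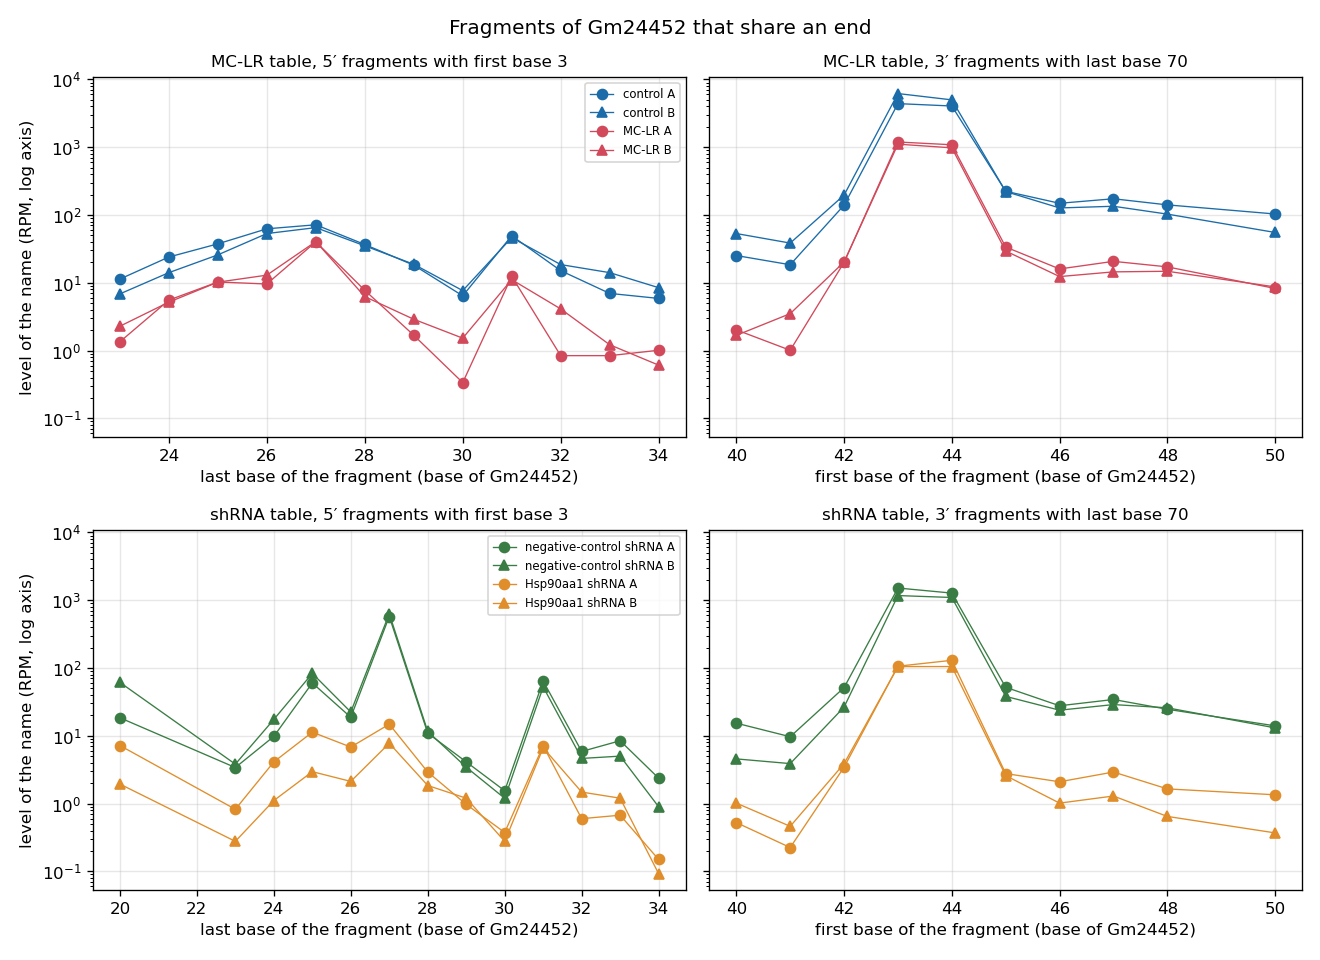
Level (RPM, log axis) of the Gm24452 names that share their first base 3 (left) or their last base 70 (right), by the base at the varying end, 1 line per library, in the MC-LR table (top) and the shRNA table (bottom). Lines join listed names only. On the right the names from bases 43 and 44 stand above the rest in all 8 libraries; on the left the name ending at base 27 is at 40.2 and 40.5 RPM under MC-LR against 71.7 and 65.1 RPM in control, and it stands far above its neighbours in the negative-control libraries and less so with the Hsp90aa1 shRNA.

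Mean fragment length, weighted by RPM, overlapped between the groups over the whole host: it was 27.0 and 27.5 nt in control and 27.3 and 27.3 nt under MC-LR. Names of 27 and 28 nt, the lengths of the 2 leading Gm24452 names, held 34.2% and 28.3% of the level in control A and 33.0% and 32.6% in control B. They held 33.8% and 32.9% in MC-LR A and 34.3% and 33.6% in MC-LR B. The groups did not overlap at 28 nt, nor at 29 nt, with 6.70% and 7.49% in control and 9.72% and 8.35% under MC-LR. Nor did they at 18 and 20 nt, higher under MC-LR, or at 21, 24 and 26 nt, lower under MC-LR. The two-sided exact permutation p was 0.33 at each of these lengths, the lowest it can be. Over names of 29 to 33 nt together the groups did overlap, with 11.4% in control A and 16.6% in control B against 14.5% and 13.6%. By length and position, 3′ names of 21 to 24 nt had the largest fold, from 1199 and 800 RPM to 126 and 113 RPM, 8.37-fold. The 3′ names of 25 to 28 nt were 5.09-fold and those of 29 to 33 nt 5.10-fold lower. Among 5′ names the order was another: those of 29 to 33 nt were 5.42-fold lower and those of 21 to 24 nt 3.70-fold. Those of 25 to 28 nt were 3.08-fold and those of 17 to 20 nt 2.99-fold lower. The 25- to 28-nt class includes piR-mmu-30383507, 1.69-fold lower, and its place below the 21- to 24-nt class depended on that 1 name. At Gm25894 the mean length was 25.5 and 28.3 nt in control and 25.0 and 25.4 nt under MC-LR, and control B alone was far from the rest.

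**Figure D5:**
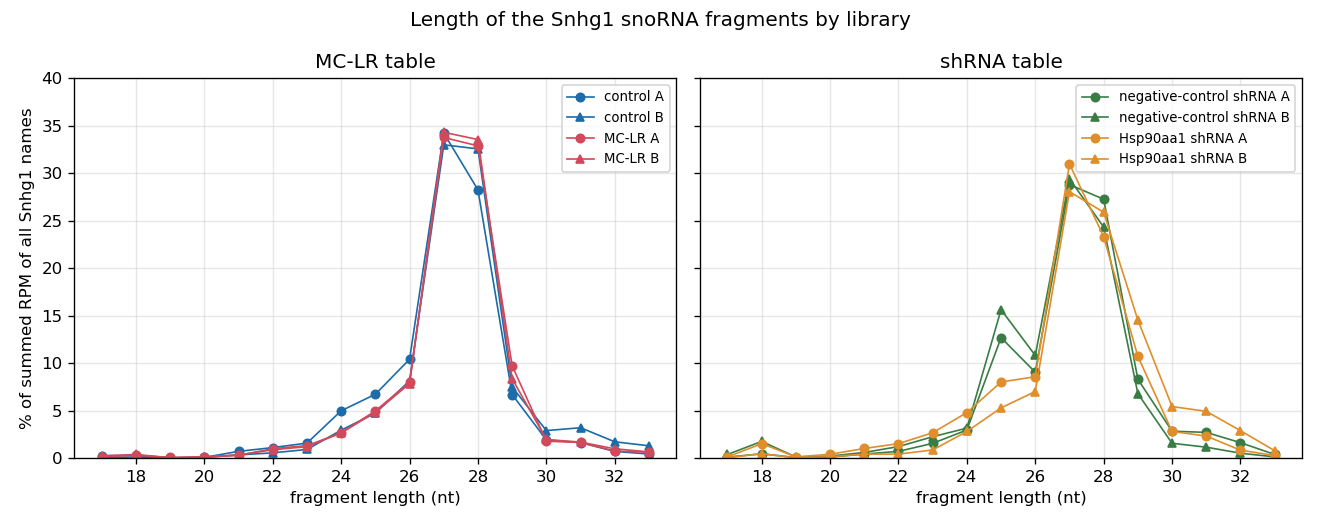
Share of the summed RPM of all Snhg1 names (y axis, %) at each fragment length (x axis, nt), 1 line per library. All 8 libraries peak at 27 nt. Both negative-control shRNA libraries have a second peak at 25 nt, at 12.7% and 15.6%, where the Hsp90aa1 shRNA libraries have 8.01% and 5.29%. Most of that peak in the negative control is 1 name, piR-mmu-30383507.

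The second comparison asked how the same fragments differ with the shRNA against Hsp90aa1. Every snoRNA of the host was lower in both Hsp90aa1 shRNA libraries, and the sum was 11.1-fold lower. Beside this, the sum of all names of the table was 7.39-fold lower and that of other Snord names 11.4-fold. Gm24453 and Gm25855 were 16.1- and 13.7-fold lower, Gm24452 13.0-fold, and Gm25894 least, 5.12-fold. Without the library negative-control A, Gm24453 was 9.60-fold lower, under Gm25855 (13.4) and Gm24452 (12.4). Here the 5′ fragments of Gm24452 were lower by a larger fold than its 3′ fragments, 19.7 against 12.0. The table was scaled apart from the first, so its levels are set beside those of control and MC-LR without a test.

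The 164 names summed to 6714 and 5804 RPM in the negative-control libraries and to 601 and 531 RPM in those of the Hsp90aa1 shRNA (means 6259 ± 643 and 566 ± 49.5 RPM, SD, n = 2). Gm24452 had 4526 and 4110 RPM against 373 and 290 RPM. Gm22680 had 857 and 609 RPM against 92.0 and 107 RPM (7.39-fold), and Gm23246 677 and 524 RPM against 57.4 and 69.4 RPM (9.47-fold). No groups overlapped. Gm25855 had 314 and 300 RPM against 25.6 and 19.3 RPM, and Gm25894 174 and 153 RPM against 34.6 and 29.3 RPM. Gm22744 had 110 and 68.0 RPM against 9.51 and 10.9 RPM (8.71-fold), Snord22 42.6 and 34.7 RPM against 7.78 and 4.89 RPM (6.10-fold) and Gm24453 13.0 and 5.53 RPM against 0.599 and 0.554 RPM.

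All 159 tested names fell by limma, where 99.5% of the names of the table fell, so the count says nothing particular about the host. The median log2 fold change was −1.82 against −1.66 over all names. With TMM factors it was −0.13 against −0.05, and 0 Snhg1 names passed in limma (20 lower and 7 higher at an unadjusted p under 0.05) and 0 in edgeR (15 and 7). In DESeq2, with its own size factors, 2 passed (11 and 4), where it called 0.724% of all names lower and 0.219% higher. The 2 were piR-mmu-30383507 and piR-mmu-9326674, both 5′ names of Gm24452. Of all names in that fit, 0.148% were lower and 0.219% higher in limma with TMM factors, and 0.083% and 0.219% in edgeR. On library totals 0 Snhg1 names rose where 0.219% of all names did. All 164 Snhg1 names lay lower without overlap, as did 99.8% of the table, and 0 lay higher, where 0.213% did. Other Snord names had a median of −1.88, those of Gas5 −1.73 and Snora names −1.56.

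Within the host, the share of Gm24452 was 67.4% and 70.8% in the negative control and 62.1% and 54.6% with the Hsp90aa1 shRNA. Gm25894 took 2.59% and 2.63% against 5.76% and 5.51%, and Gm22680 12.8% and 10.5% against 15.3% and 20.1%. These 3 shares and those of Gm25855 and Snord22 did not overlap between the groups, and the smallest exact p was again 0.33 (0.762 adjusted over the 16 shares of this table). Gm25894, the snoRNA with the smallest fold in both tables, had the higher share in both exposed groups. In the first table Snord22 had the smaller fold without control A (3.73 against 4.81) and without MC-LR A (4.41 against 4.58). The higher share in that table was not kept with the leading name of Gm25894, piR-mmu-7434602. With the most abundant name of each snoRNA alone, the share of Gm25894 differed by −0.33 percentage points in place of 0.43.

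The 5′ share of the host was 18.8% and 24.6% in the negative control and 20.3% and 14.8% with the Hsp90aa1 shRNA, and the groups overlapped. At Gm24452 it was 18.7% and 23.6% against 16.4% and 10.7%, without overlap, the reverse of the order in the first table. That order depended on 1 name, piR-mmu-30383507, 53.4-fold lower. The next name on its first base was 10.1-fold lower and the other 11 were 6.65-fold lower in sum, under the 12.0-fold of the 3′ names of Gm24452. At Gm23246 the 5′ share was 36.3% and 56.8% against 45.6% and 26.7%, with overlap. The folds there were 12.1 for 5′ and 8.02 for 3′ names, and 10.4 and 10.5 without the library Hsp90aa1 shRNA B. Set beside the first table, 2.87% and 2.17% of the Gm24452 level was 5′ in control and 3.19% and 3.76% under MC-LR. Mean fragment length overlapped too, at 27.1 and 26.6 nt against 26.9 and 27.7 nt. Beside these, the 5′ share of other Snord names was 50.6% and 59.8% against 47.6% and 43.4%, without overlap, and that of Gas5 names lay the other way, 22.8% and 23.0% against 25.5% and 25.2%, also without overlap.

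A single name had most of the 5′ level of Gm24452 in the negative control. piR-mmu-30383507, the 25-nt 5′ name of Gm24452 that did not pass in the first table, had 575 and 630 RPM in the negative control and 14.8 and 7.75 RPM with the Hsp90aa1 shRNA, 53.4-fold lower (limma log2 fold change −5.68 ± 0.62 SE, adjusted p = 5.70e-04). It was the largest change of any Snhg1 name in this table, and with TMM factors it was at −2.92 (limma adjusted p = 0.0810). The other 12 names on its first base were 3.48- to 13.5-fold lower. Together with the 23-nt piR-mmu-49540727 it made up 81.1% and 79.5% of the level on that end in the negative control and 45.1% and 37.1% with the Hsp90aa1 shRNA. Next in size were piR-mmu-9326674, which begins 1 base earlier at base 2 and went from 54.7 and 60.5 RPM to 2.02 and 0.923 RPM (−4.60 ± 0.49), and piR-mmu-9382403 of Gm23246. That 26-nt name also begins at base 3 of its gene, 5 bases before the C box, as its sequence shows:
piR-mmu-9382403: cacccTGATGAactgaataccgcccc

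It had 87.4 and 103 RPM in the negative control and 2.84 and 3.23 RPM with the Hsp90aa1 shRNA (−4.57 ± 0.52, limma adjusted p = 5.70e-04; −2.02 with TMM factors, limma adjusted p = 0.267). The 5′ names of 25 to 28 nt as a class went from 875 and 950 RPM to 46.6 and 32.5 RPM, 23.1-fold, while 5′ names of 29 to 33 nt were 5.39-fold lower. Most of the 25- to 28-nt level in the negative control was piR-mmu-30383507, so the fold of that class is largely the fold of 1 name. Among 3′ names the folds were 11.9 for 21 to 24 nt, 11.5 for 25 to 28 nt and 6.85 for 29 to 33 nt. The 17- to 20-nt class of the 3′ set held a single name.

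Of the leading 3′ names, piR-mmu-2047156 went from 1512 and 1170 RPM to 106 and 105 RPM (limma log2 fold change −3.64 ± 0.68 SE, adjusted p = 0.00102) and piR-mmu-27123547 of Gm25855 from 192 and 194 RPM to 11.4 and 7.48 RPM (−4.24 ± 0.58). piR-mmu-26817374 of Gm22680 fell from 314 and 246 RPM to 37.9 and 43.9 RPM (−2.74 ± 0.61). The 2 leading names on base 70 of Gm24452 held 92.4% and 93.2% of the level on that end in the negative control and 94.0% and 94.9% with the Hsp90aa1 shRNA. At Gm22744, piR-mmu-52548356 (33 nt) had 17.3 and 4.26 RPM against 1.12 and 2.49 RPM, so its negative-control libraries lay far apart (−1.85 ± 0.59, limma adjusted p = 0.0116). piR-mmu-12412562 of Gm25894 had 16.0 and 14.6 RPM against 1.497 and 2.40 RPM (−2.48 ± 0.43). piR-mmu-67963210 of Snord22 had 4.12 and 4.26 RPM against 1.35 and 0.277 RPM, and piR-mmu-20326758 of Gm24453 4.02 and 1.49 RPM against 0.225 and 0.0923 RPM. The last values rest on 3 reads and 1 read.

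The 3 smallest changes in this table were low names, each under 2.2 RPM: piR-mmu-30128115 of Gm22680 (−0.72 ± 0.19), piR-mmu-4691886 of Gm24452 (−0.76 ± 0.20) and piR-mmu-16177823 of Gm25894 (−0.81 ± 0.28). All 3 passed in limma (adjusted p = 0.00526, 0.00453 and 0.0167) and lay above 0 with TMM factors, at 0.31, 0.13 and 0.88. They are among 63 of the 159 tested names above 0 on that scale.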

How the data were processed

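Small RNA of sperm was measured in 8 libraries. The deposited tables give each piRNA name's loci (mm10) and its level in RPM (reads divided by the library's total and rescaled), as the authors computed it; the submitters' processing notes name Bowtie2 2.2.3, HISAT2 2.1.0 and HTSeq 0.6.0, with roles not given in the sources used here. All values were a whole number of reads within 0.01 once divided by the value of 1 read, which gave the totals, and with 4960467 to 14634370 reads a floor of 3 reads is at most 0.605 RPM. No value column was left without a sample. Starts were read as 0-based and are written 1-based. snoRNA positions and sequences come from GENCODE M21 transcripts (GRCm38, the same assembly as mm10), and a name belonged to a snoRNA where at least 0.5 of it lay on that gene on the same strand. A total of 7 names in the MC-LR table and 6 in the shRNA table are listed at 2 loci, so their reads cannot be given to 1 gene.

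Each table was fitted apart with limma 3.58.1 on log2(RPM + 1), which understates changes of low names, over all names whose mean reached 1 RPM in either group, with Benjamini-Hochberg adjustment and a threshold of 0.05. Only the 4 libraries of a table entered its fit. As alternatives, pseudocounts of 0.5 and 5 RPM, no filter, TMM factors, edgeR 4.0.16 and DESeq2 1.42.0 on the recovered reads, a block on the library letter and leaving out each library were run. On recovered reads (100% of values whole) and library totals, edgeR put 10004 names lower and 314 higher in the first table, and 16700 and 37 in the second. Sums and shares were compared by two-sided exact permutation tests. The fits were run in R 4.3.3 on simulated data in which changes up and down were balanced. No shift of nearly all names was simulated, and limma was held to no required recovery there. Tables and figures were made in Python 3.11.15 with pandas 2.3.3 and matplotlib 3.10.9. Same-lettered libraries deviated together with a correlation of 0.07 (MC-LR table) and −0.61 (shRNA table), so the letters were not taken as pairs.

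The text names, for each snoRNA and table, the most abundant tested name, the 3 largest and 3 smallest changes, any that rose and up to 3 abundant names that did not pass. Members and lists were chosen with earlier results of these data known.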

Additional observations from a re-analysis of the deposited data

How the results depend on the processing

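Each table has 2 libraries per group, and its direction was lower for nearly every listed name, so the calls depend on how the libraries are scaled. Over all names the median (log2) went from −1.17 to 0.00 under MC-LR and from −1.66 to −0.05 with the Hsp90aa1 shRNA when TMM factors were used. The Snhg1 names called lower went from 168 to 29 (limma), 24 (edgeR) and 27 (DESeq2, 3.01% of all names) under MC-LR, and from 159 to 0, 0 and 2 (0.724%) with the shRNA; DESeq2 gave no adjusted p for 3602 and 9152 names of the 2 tables. Leaving out 1 library gave 135 to 176 and 140 to 156 names lower, where 39.6% to 80.8% and 85.2% to 96.6% of all names were, with the lone library assumed to vary like the other group. With the replicate block the counts were 165 and 156 (72.0% and 96.4% of all names), and with the letters crossed, a choice made after seeing the data, 159 for the shRNA. Scaled by limma with TMM factors, edgeR with TMM factors and DESeq2, in that order, the log2 fold change turned positive under MC-LR for piR-mmu-49830887 (0.44, 0.58, 0.68), piR-mmu-48722020 (0.81, 0.88, 0.94), piR-mmu-48888842 (0.80, 0.64, 0.72), piR-mmu-30383507 (0.88, 0.89, 0.93), piR-mmu-48828945 (0.76, 0.85, 0.89) and piR-mmu-29265642 (0.69, 0.82, 0.87). It turned positive with the shRNA for piR-mmu-52548356 (0.41, 0.38, 0.49), piR-mmu-26817374 (0.091, 0.13, 0.20), piR-mmu-67963210 (0.12, 0.44, 0.46), piR-mmu-30128115 (0.31, 0.73, 0.79), piR-mmu-4691886 (0.13, 0.50, 0.52) and piR-mmu-16177823 (0.88, 1.36, 1.42), and in DESeq2 alone for piR-mmu-12412562 (0.019). Without 1 library piR-mmu-48888842 ranged from −1.45 to 0.23 under MC-LR. The share of Gm24452 differed by −10.7 percentage points with the shRNA and by −4.36 with the most abundant name of each snoRNA alone. The cause of these shifts was not tested.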
